A study of Mus musculus with 12 samples.

Results

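The transcripts of wild-type mouse marginal zone B cells were compared after 4 h with an antibody to IgM at 10 µg/mL and after 4 h without a stimulus. The comparison used 4 of the 12 libraries of the series, 2 with anti-IgM and 2 unstimulated. Values are FPKM, or fragments per kilobase of transcript scaled for library size, and the deposited values were already scaled to each other. The comparison covered 10797 of the 24346 gene symbols in the files, namely those with at least 1 FPKM in at least 2 of the 12 libraries. It left 13549 symbols untested. Beside it stood 2 libraries of wild-type cells given lipopolysaccharide (LPS) at 10 µg/mL for 4 h and, from Trpm5-/- marginal zone B cells, 2 unstimulated libraries and 2 with anti-IgM at the same dose and time. Trpm5 encodes a cation channel that opens when intracellular calcium rises, and the study asked how it bears on calcium signalling in B cells. The labels give no strain, sex or age and do not say how the cells were purified. Nor do they tell whether duplicate libraries stand for different mice or cultures, so the p-values below measure only the spread between libraries, which may be technical. That spread was pooled in a single fit over all 12 libraries, which also include 2 of Trpm5-/- cells with LPS.

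Marginal zone B cells lie at the edge of the white pulp of the spleen, where blood-borne antigen first meets B cells, and they respond faster than follicular B cells. An antibody to IgM cross-links the B cell receptor. The kinases LYN and SYK then act on the receptor's CD79A and CD79B chains, phospholipase C releases calcium from the endoplasmic reticulum, and the signal passes to NFAT through calcineurin, to ERK through RasGRP and Ras, and to NF-kB. LPS reaches NF-kB and MAP kinases by another route, through TLR4 and its adaptors.

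The label of the cells was checked against markers. All 14 pan-B markers were present, with summed FPKM of 18263 and 18457 in the unstimulated libraries and 12157 and 12213 with anti-IgM. Cd74, which is also an MHC class II presentation gene, held most of these sums, with a mean of 10557 FPKM over the 4 libraries. All 22 marginal zone genes were present as well, Cr2 (CD21) at 33.9 and 37.5 FPKM and Cd9 at 269 and 284 FPKM in the unstimulated libraries. The 12 follicular genes found were also all present. They summed to 1951 and 1979 FPKM in the unstimulated libraries, against 1699.9 and 1625 for the marginal zone genes. Presence of these genes therefore does not separate the subsets. Of the 10 T cell markers 8 stayed under 1 FPKM, with Cd3e and Thy1 at 0. Their sum was 174 to 179.8 FPKM unstimulated and 103 to 108 with anti-IgM. Cd2 had the highest mean over the 4 libraries (95.7 FPKM). Of the 3 T cell markers tested 1 rose (log2 difference 1.39) and 1 fell (-1.92), each by at least 2-fold. The 12 macrophage and monocyte markers summed to 33.2 to 40.3 FPKM unstimulated and 19.4 to 21.8 with anti-IgM, with Fcgr1 at 0. The 7 platelet markers summed to 10.1 and 12 FPKM unstimulated and to 2.93 and 3.57 with anti-IgM, with Gp6 at 0. Of these 7 markers 6 stayed under 1 FPKM in all 4 libraries, and Itgb3 was the highest (mean 5.85 FPKM). The 7 dendritic cell markers summed to 9.95 and 9.21 FPKM unstimulated and to 14.6 and 15 with anti-IgM, with Zbtb46 the highest and Clec9a at 0. Neutrophil, NK cell and stromal markers summed to under 4 FPKM in each of the 4 libraries. Haemoglobin and other erythroid transcripts summed to 1123 to 1389 FPKM unstimulated and 898 to 932 with anti-IgM. The parts of these other cell types in the changes below were not tested.

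FPKM sums of the 4 libraries lay between 563461 and 639364, and 13086 to 13483 symbols were above 0. Their depths relative to the first unstimulated library, read from the steps between low values, were 0.934, 0.664 and 0.812. Pearson correlations within the groups were 0.959 (unstimulated) and 0.973 (anti-IgM). Trpm5 mRNA lay between 0.0196 and 0.21 FPKM in the 4 wild-type libraries and between 0 and 0.0236 in the 4 Trpm5-/- libraries used here, so that at this level it is a weak check of the genotype labels.

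Anti-IgM changed a large share of the genes tested. Of 10797 genes 5246 passed the threshold (48.6%, limma, Benjamini-Hochberg adjusted p under 0.05), 2991 higher (27.7%) and 2255 lower (20.9%). By at least 2-fold, 544 were higher (5.04%) and 636 were lower (5.89%), where fold changes are on the scale of log2(FPKM + 1), which understates the change of genes near 1 FPKM. By at least 4-fold, 22 were higher and 67 lower. The median over all genes was 0.015 on the log2 scale. Because the deposited values were already scaled to each other, this median does not bear on a change in total RNA. Differences below are log2 differences ± SE of the fit with 2 libraries a group, genes said to rise or fall had an adjusted p under 0.05, and counts in a list are to be read against the shares of 27.7% and 20.9%. In all 5246 called genes both anti-IgM libraries lay on one side of both unstimulated libraries, which was also the case for 8027 genes (74.3%) in all. Because these are bulk libraries, fewer cells of a type and less RNA per cell cannot be told apart.

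**Figure D1:**
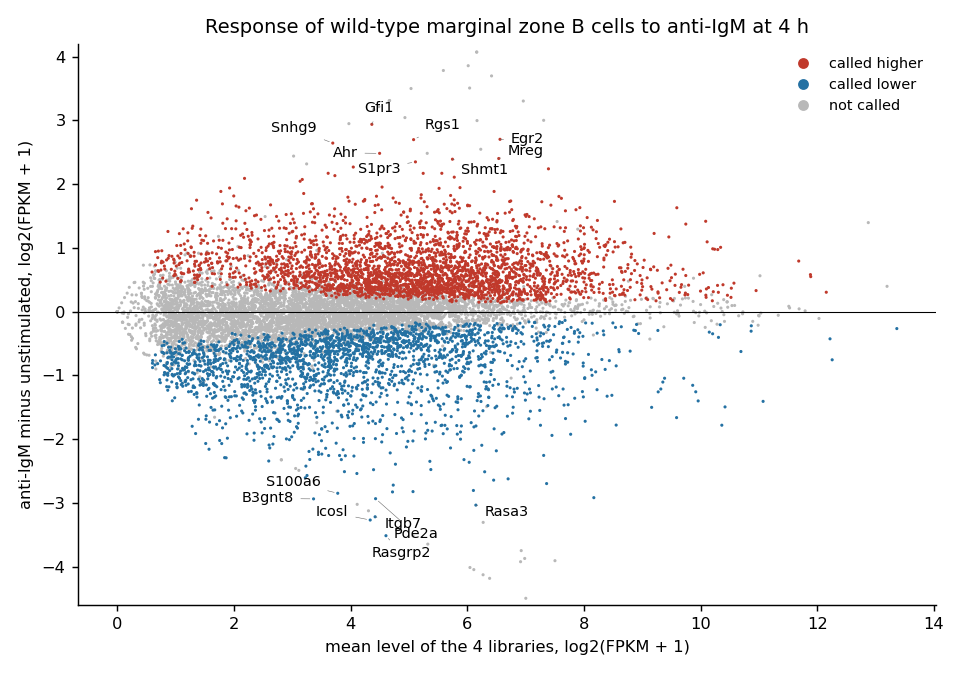
Each point is 1 of 10797 genes. The x axis is the mean level of the 4 wild-type libraries and the y axis the difference between anti-IgM and unstimulated cells, both as log2(FPKM + 1). Red and blue mark genes called higher (2991) and lower (2255), grey those not called, and 20 genes lie outside the plotted range. Labels mark the 8 largest rises and 7 of the largest falls under the naming rule.

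The largest rise by that rule, which asks for 5 FPKM in the higher group, was that of Gfi1 (chr5:107716657-107726036, mm10), a transcriptional repressor of blood and lymphoid cells. It stood at 4.15 and 3.38 FPKM in the unstimulated libraries and at 34.2 and 36.6 with anti-IgM, a difference of 2.94 ± 0.17 (adjusted p = 3.04e-07). Rgs1, which shortens signals of chemokine and other G protein-coupled receptors, went from 6.77 and 9.43 to 54.5 and 60.5 FPKM (2.7 ± 0.22). Ahr, the aryl hydrocarbon receptor, went from 6.72 and 5.05 to 39.2 and 35.4 FPKM (2.48 ± 0.12). All 3 were low before the stimulus. S1pr3, a sphingosine 1-phosphate receptor of marginal zone B cells, rose from 8.94 and 11.9 to 54.7 and 58.7 FPKM (2.35 ± 0.14), as did Spp1, which encodes the secreted protein osteopontin, from 5.73 and 3.75 to 27.5 and 25.1 FPKM (2.27 ± 0.17). The other large rises included Shmt1, a one-carbon enzyme (15 and 17.5 to 88.6 and 89.7 FPKM, 2.39 ± 0.084). Others of the 15 largest rises were those of Mreg, which encodes melanoregulin (2.4 ± 0.099), Tagap, a GTPase-activating protein of lymphocytes (2.17 ± 0.11), Gng4, a G protein gamma subunit (2.13 ± 0.11), Fabp5, a fatty acid carrier (2.11 ± 0.16), and Serpinb6b, a protease inhibitor (2.17 ± 0.22). Snhg9, a small nucleolar RNA host gene, also met the rule (2.64 ± 0.82, adjusted p = 0.0219), but it was at 0 in the second unstimulated library and at 9.35 FPKM in the first. Without the second the Snhg9 difference was 0.96 (adjusted p = 0.101), and its call was also lost without either anti-IgM library (adjusted p = 0.0919 and 0.0634).

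The largest falls were larger in absolute log2 value than the largest rises. Rasgrp2 (chr19:6399340-6415216), which encodes a calcium-responsive activator of Rap1, fell from 43.2 and 44.3 to 2.48 and 3.4 FPKM (-3.52 ± 0.14, adjusted p = 6.44e-08). Icosl (chr10:78069302-78083913), the ligand by which B cells engage ICOS on T cells, fell from 33 and 38.2 to 2.57 and 3.01 FPKM (-3.27 ± 0.17). Rasa3, a GTPase-activating protein for Ras and Rap, fell from 122 and 128 to 16.1 and 12.8 FPKM (-3.04 ± 0.11). Adhesion molecules stood beside them, as Itgb7, an integrin chain of homing receptors (35.9 and 39.4 to 3.2 and 3.1 FPKM, -3.22 ± 0.18) and Pecam1, or CD31 (42 and 48.2 to 5.65 and 6.32 FPKM, -2.72 ± 0.11). Others of the 15 largest falls encode signalling and surface proteins, among them Il10ra, a chain of the interleukin 10 receptor (-2.83 ± 0.12), Cd55, a complement regulator (-2.62 ± 0.064). Enzymes and small proteins were also there, as Pde2a, a cyclic nucleotide phosphodiesterase (-2.94 ± 0.13), Acp5, an acid phosphatase (-2.82 ± 0.15), B3gnt8, a glycosyltransferase (-2.94 ± 0.23), and S100a6, a calcium-binding protein (-2.85 ± 0.39). Platelets also express Rasgrp2, Rasa3 and Pecam1, and the summed platelet markers were lower with anti-IgM (2.93 and 3.57 against 10.1 and 12 FPKM). Of these 7 markers 6 stayed under 1 FPKM in all 4 libraries. Itgb3, an integrin gene, was the highest (mean 5.85 FPKM). The part of platelets in these falls was not tested.

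**Figure D2:**
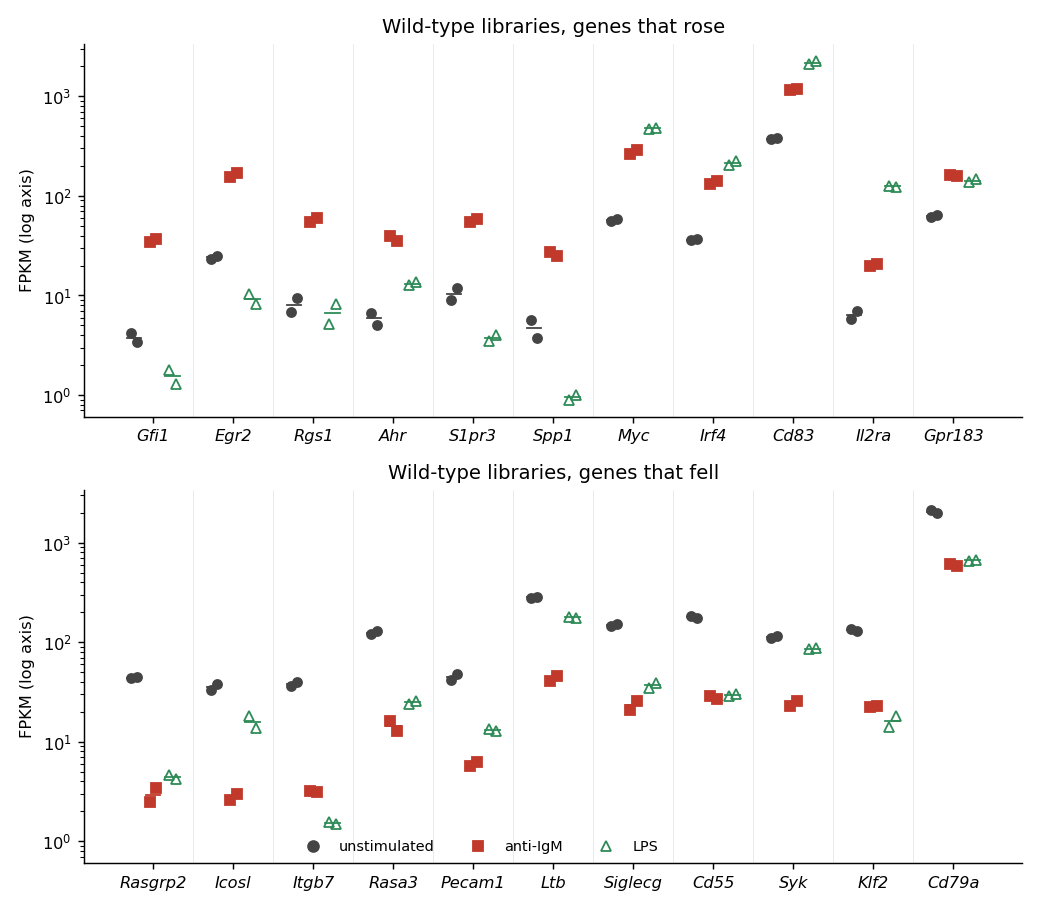
FPKM on a log axis in each wild-type library for 11 genes that rose (upper panel) and 11 that fell (lower panel) with anti-IgM. Circles are unstimulated, squares anti-IgM and open triangles LPS libraries, 2 of each, and short lines are means. Squares and circles do not overlap in these 22 genes, as in every called gene and in 74.3% of all genes tested, so the choice of genes fixed this. For Gfi1, Egr2, S1pr3 and Spp1 the LPS libraries lie below the unstimulated ones.

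Immediate early transcription factors of the EGR and NR4A families rose nearly as a whole. Of 8 members tested, 7 rose, all of them by at least 2-fold, and none fell, with a median of 1.42 against 0.015 for all genes. Egr2 (chr10:67535475-67542188), a zinc finger factor induced by antigen receptors, went from 23.2 and 25.1 FPKM to 156 and 169.7 FPKM (2.7 ± 0.11, adjusted p = 6.54e-08), and its relative Egr3 from 8.33 and 7.33 to 22.2 and 21.7 FPKM (1.38 ± 0.16). Egr1, another member, rose from 44.5 and 46.1 to 118 and 134 FPKM (1.45 ± 0.074). The orphan nuclear receptor Nr4a1 (Nur77), long used as a reporter of antigen receptor signals, stood at 103 and 117 FPKM before and 271 and 278 after the stimulus (1.32 ± 0.07). Nr4a2 (5.02 and 6.94 to 22.9 and 23.1 FPKM, 1.8 ± 0.15) and Nr4a3 (3.84 and 4.3 to 13.9 and 15.2 FPKM, 1.61 ± 0.13) rose from a lower level than Nr4a1. Nab2, a corepressor that binds EGR proteins and restrains them, rose too (14.9 and 12.4 to 31.4 and 34.8 FPKM, 1.23 ± 0.13), whereas the related Nab1 did not pass the test (0.044; it was picked out after its value was seen).

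Promoter sequences of the changed genes were read to see which known elements lie close to their start sites. The 250 bases before the first RefSeq start of a gene were searched on both strands, each element by itself (none of the letter patterns contains another), and 8231 of the 10797 genes tested had such a sequence. The E-box CACGTG, which MYC and its relatives bind, was present in 15.1% of 425 promoters of genes that rose at least 2-fold, in 5.76% of 469 of genes that fell at least 2-fold, in 9% of all tested and in 6.05% of 27025 RefSeq promoters. The FOXO element TGTTTAC went the other way, at 0.941% of the promoters of rising genes (4 genes) and 4.26% of falling genes (20 genes). It was in 2.16% of all tested and 3.09% of all RefSeq promoters. The cAMP response element TGACGTCA was found in 3.53% (rising, 15 genes), 0.64% (falling, 3 genes), 2.99% (tested) and 1.62% (RefSeq). In the same order the EGR element GCGNGGGCG was in 10.1%, 6.82%, 8.54% and 4.65%. The ETS element CCGGAAGT was less frequent in both changed sets (4.47% and 2.77%) than in all tested (6.85%), and was in 2.93% of RefSeq promoters. The AP-1 element TGANTCA was in 4.47%, 5.76%, 3.92% and 6.87%. The CArG box bound by serum response factor was in 0.941% (4 genes), 1.71% (8 genes), 1.09% and 1.4%. Median GC content was 60% in rising, 58.4% in falling, 60% in tested and 52% in all RefSeq promoters. A match is a description of the letters and not evidence that a factor binds there.

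Stretches just before a RefSeq start are printed for 4 genes that have a match there. Each runs 5′ to 3′ on the gene's strand (RefSeq, GRCm38.p6), with the element in capitals. They hold a CArG box that starts 72 bases before the third of the listed starts of Egr2, an EGR element 60 bases before a start of Nr4a1, E-boxes 116, 58 and 44 bases before the start of Ciart, a clock gene that rose from 13.8 and 11.8 to 63.2 and 58.8 FPKM (2.17 ± 0.13), and a FOXO element 124 bases before the start of Ltb, the lymphotoxin beta gene, which fell from 281 and 286 to 40.4 and 45.5 FPKM (-2.7 ± 0.075). Those of Egr2 and Nr4a1 lie within the annotated span of the gene, before a start inside it, and those of Ciart and Ltb lie upstream of the gene. The percentages above used the first start, where Egr2 has an E-box and no CArG box. No searched element was found before any listed start of Gfi1, S1pr3, Rasgrp2, Icosl, Itgb7 or Rasa3. Among other genes that fell, Pde2a had an EGR element and Dgka an E-box before a later start. None of the 4 stretches holds a base of an exon in the GENCODE M21 annotation, and those of Ciart and Ltb were shortened by 23 and 68 bases for this.
Egr2, chr10:67537619-67537868, plus strand: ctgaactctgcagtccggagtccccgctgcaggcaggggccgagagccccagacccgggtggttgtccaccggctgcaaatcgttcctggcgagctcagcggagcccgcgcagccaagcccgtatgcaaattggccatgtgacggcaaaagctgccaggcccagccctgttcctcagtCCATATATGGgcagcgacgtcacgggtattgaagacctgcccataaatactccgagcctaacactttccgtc
Nr4a1, chr15:101266596-101266845, plus strand: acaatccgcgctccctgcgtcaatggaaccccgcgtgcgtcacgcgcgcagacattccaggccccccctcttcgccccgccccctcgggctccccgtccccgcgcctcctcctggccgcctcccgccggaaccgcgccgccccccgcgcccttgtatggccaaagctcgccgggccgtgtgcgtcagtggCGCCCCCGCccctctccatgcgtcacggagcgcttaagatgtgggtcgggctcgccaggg
Ciart, chr3:95882252-95882478, minus strand: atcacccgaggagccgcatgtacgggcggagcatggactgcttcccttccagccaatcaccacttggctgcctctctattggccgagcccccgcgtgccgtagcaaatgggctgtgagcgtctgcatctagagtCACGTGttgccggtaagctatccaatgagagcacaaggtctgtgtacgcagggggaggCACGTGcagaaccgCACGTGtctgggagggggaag
Ltb, chr17:35194257-35194438, plus strand: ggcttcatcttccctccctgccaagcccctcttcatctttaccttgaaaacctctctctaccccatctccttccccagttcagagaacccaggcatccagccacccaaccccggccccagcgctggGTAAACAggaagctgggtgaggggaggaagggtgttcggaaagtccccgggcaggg

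AP-1 genes rose more often than they fell. Of 13 members 7 rose and 1 fell (median 0.55). The small MAF factors, which pair with BACH and NRF proteins, rose together, Mafk from 33.2 and 31.1 to 75.3 and 70.3 FPKM (1.15 ± 0.071), Mafg from 21.9 and 23.9 to 45.3 and 51.6 FPKM (1.05 ± 0.089) and Maff from 0.467 and 0.314 to 1.72 and 1.99 FPKM (1.04 ± 0.17, and 2.01 with a pseudocount of 0.1). Fosl2 rose from 1.46 and 1.27 to 4.66 and 4.96 FPKM (1.3 ± 0.17) and Atf3 from 6.75 and 7.32 to 16.2 and 14.2 FPKM (1.01 ± 0.12). Jund was the member that fell (49.6 and 52.1 to 20.9 and 21.2 FPKM, -1.23 ± 0.14). Among 17 other immediate early genes 7 rose and 4 fell. Plk3, a stress-responsive kinase, rose from 13.4 and 11.5 to 42.5 and 42.7 FPKM (1.7 ± 0.088), while the antiproliferative Btg2 fell from 212 and 217 to 84.7 and 83.4 FPKM (-1.34 ± 0.066) and the growth arrest gene Gadd45a from 25.5 and 19.2 to 6.55 and 6.44 FPKM (-1.63 ± 0.15).

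Genes of the NF-kB system moved moderately. Of 15 subunits and inhibitors 9 rose and 3 fell (median 0.28). Rel, the c-REL subunit that B cells use in activation, rose from 47.1 and 50 to 117 and 124 FPKM (1.3 ± 0.056), and the inhibitor Nfkbie from 69.2 and 67.6 to 162 and 166 FPKM (1.25 ± 0.049). Nfkbiz, an atypical inhibitor that also activates some targets, rose from 14.5 and 14.4 to 30.1 and 29.5 FPKM (0.99 ± 0.079), and Tnfaip3 (A20), a deubiquitinase that ends the signal, rose from 26.9 and 26.6 to 48 and 46.6 FPKM (0.8 ± 0.06). Nfkbia, which encodes the classical inhibitor, gained little (219 and 222 to 268 and 265 FPKM, 0.28 ± 0.05), as did Nfkbid (169 and 166 to 198 and 206 FPKM, 0.27 ± 0.05), and neither passed the test after quantile normalization (0.019 and 0.061, adjusted p = 0.746 and 0.417). Bcl3, a nuclear partner of the p50 and p52 subunits, fell from 71 and 72.4 to 20.6 and 19.5 FPKM (-1.79 ± 0.081). Of 28 NF-kB targets 15 rose and 6 fell. Cd83, an activation marker that stabilizes MHC class II at the surface, rose from 374 and 379 to 1160.2 and 1175 FPKM (1.63 ± 0.056), the survival genes Bcl2a1b (148 and 132 to 407 and 374 FPKM, 1.48 ± 0.077) and Bcl2l1 (BCL-XL, 11.1 and 10.7 to 25.3 and 27.5 FPKM, 1.2 ± 0.063) rose, and the kinase gene Pim2 fell from 79.5 and 81 to 39.4 and 42.8 FPKM (-0.95 ± 0.057). Bcl2a1b has near-identical copies whose reads the counting could split.

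Calcium and NFAT genes moved in both directions. Of 14 calcineurin and NFAT genes 2 rose, 4 fell and 8 were not called, against 27.7% of all genes called higher and 20.9% lower. The 2 that rose were Nfatc1, an NFAT factor that induces its own gene (109 and 121 to 175 and 184 FPKM, 0.64 ± 0.075), and Rcan1, a calcineurin inhibitor known as an NFAT target (9.89 and 9.81 to 16.1 and 14.3 FPKM, 0.57 ± 0.1). The calcineurin catalytic subunits Ppp3ca (51 and 51.7 to 21.2 and 20.8 FPKM, -1.25 ± 0.082) and Ppp3cc (-1.11 ± 0.086) fell. Of 23 genes of calcium entry, release and pumping 5 rose and 10 fell. Orai1, the pore of store-operated entry, rose from 23.6 and 22.5 to 58.1 and 60.6 FPKM (1.33 ± 0.071), the store pump Atp2a2 from 30.2 and 35.1 to 66.7 and 67.9 FPKM (1.02 ± 0.078) and Lrmp, a partner of IP3 receptors, from 53.2 and 51 to 122 and 127 FPKM (1.24 ± 0.11). The IP3 receptor gene Itpr3 fell from 10 and 10.6 to 4.04 and 4.19 FPKM (-1.15 ± 0.13).

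Most transcripts of the receptor complex and its first signalling steps fell. Of 28 genes of proximal B cell receptor signalling 17 fell, 8 of them by at least 2-fold, and 6 rose (median -0.38). Cd79a and Cd79b, the signalling chains of the receptor itself, went from 2121 and 1965 to 605 and 581 FPKM (-1.78 ± 0.064) and from 2064 and 1979.8 to 708 and 725 FPKM (-1.49 ± 0.055). Syk, the kinase recruited to them, fell from 109 and 116 to 22.8 and 25.4 FPKM (-2.18 ± 0.076, adjusted p = 3.66e-08). The adaptor Bank1 fell from 146 and 148 to 30.3 and 32.9 FPKM (-2.18 ± 0.092). These genes act at the receptor and just below it. Cr2, a complement receptor and a member of the same list, rose from 33.9 and 37.5 to 58.5 and 57.1 FPKM (0.68 ± 0.074).

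Inhibitors of the same receptor fell more often than they rose. Of 24 tested 12 fell, 8 by at least 2-fold, and 5 rose (median -0.54). The sialic acid-binding receptors Siglecg (146 and 153 to 20.7 and 25.8 FPKM, -2.64 ± 0.14) and Cd22 (92.3 and 94.8 to 21.5 and 23.8 FPKM, -2.0 ± 0.098) fell. So did Fcgr2b, the inhibitory receptor for IgG (112 and 105 to 49.9 and 49.9 FPKM, -1.11 ± 0.091), the ubiquitin ligase Cblb (17.1 and 17.7 to 6.28 and 7.08 FPKM, -1.26 ± 0.1) and the diacylglycerol kinase Dgka (119.5 and 119 to 16.4 and 16.1 FPKM, -2.81 ± 0.081), which consumes the lipid that activates RasGRP proteins. Cd72, another inhibitory receptor, rose from 310.3 and 281 to 596 and 596 FPKM (1.01 ± 0.054).

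Ras and Rap regulators fell more often than they rose, and most MAP kinase brakes were not called. Of 23 regulators of Ras and Rap 11 fell and 5 rose (median -0.39). Beside Rasgrp2 and Rasa3, Rasgrp3, the main Ras exchange factor of B cells, fell from 83.1 and 85.5 to 26.4 and 30.4 FPKM (-1.54 ± 0.091), and Sipa1, which inactivates Rap1, from 80.4 and 80.7 to 28.2 and 30.9 FPKM (-1.42 ± 0.088). Of 15 MAP kinase brakes 5 rose, 1 of them by at least 2-fold, 1 fell and 9 were not called. Over all genes 27.7% were called higher and 20.9% lower. The phosphatase genes Dusp4 (14.9 and 13.5 to 42.1 and 45.6 FPKM, 1.56 ± 0.08) and Dusp2 (191 and 172 to 311 and 318 FPKM, 0.79 ± 0.073) rose, and Dusp5 fell (22.3 and 25.2 to 10.9 and 12.6 FPKM, -0.96 ± 0.14). Rasgef1b, an exchange factor for Rap2, was among the 10 genes of smallest p in the comparison of genotypes and rose here (82.6 and 84.4 to 298 and 292 FPKM, 1.81 ± 0.053).

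Myc and the machinery of ribosome production rose. Myc (chr15:61985391-61990374), the growth factor-responsive transcription factor, went from 56.4 and 58.9 to 266 and 287 FPKM (2.24 ± 0.053, adjusted p = 8.71e-09). Its antagonists Mxd4 (12.1 and 11.7 to 3.55 and 2.8 FPKM, -1.63 ± 0.25) and Mxi1 (11.9 and 11.6 to 5.52 and 4.83 FPKM, -1.05 ± 0.18) fell. All 36 ribosome biogenesis genes rose, 29 of them by at least 2-fold, with a median of 1.25 and a range of 0.64 to 1.81, against 27.7% of all genes tested that were called higher. Ncl (nucleolin) went from 141 and 134 to 355 and 348 FPKM (1.35 ± 0.046), Gnl3 (nucleostemin) from 73.2 and 69.1 to 245 and 229.8 FPKM (1.72 ± 0.062), Nolc1, a nucleolar chaperone, from 29 and 32.4 to 101 and 96.8 FPKM (1.66 ± 0.061) and Dkc1, which modifies ribosomal RNA, from 81.8 and 87.1 to 219 and 204 FPKM (1.31 ± 0.053). Among the host genes of small nucleolar RNAs 8 of 14 rose and none fell, Snhg4 from 9.27 and 12.7 to 44.3 and 35.9 FPKM (1.78 ± 0.14).

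Biosynthetic genes that feed growth rose more often than they fell. Of 26 genes of nucleotide and one-carbon synthesis 22 rose and 1 fell (median 0.94). Shmt2, the mitochondrial relative of Shmt1, went from 86.6 and 86 to 216 and 221 FPKM (1.33 ± 0.043) and Gart, a purine enzyme, from 34.1 and 32.7 to 75 and 74.1 FPKM (1.14 ± 0.051). Of 10 polyamine genes 4 rose and 2 fell. The synthetic enzymes Srm, or spermidine synthase (90.1 and 84.9 to 297 and 308 FPKM, 1.78 ± 0.056), and Odc1, or ornithine decarboxylase (161 and 163 to 333 and 326 FPKM, 1.02 ± 0.061), rose, and Oaz2, an inhibitor of the latter, fell (-0.38 ± 0.086). Of 14 amino acid transporters 9 rose and 3 fell. Slc7a5 and Slc3a2, the chains of the large neutral amino acid carrier, went from 19.8 and 23.2 to 68.9 and 65.3 FPKM (1.6 ± 0.1) and from 66.7 and 65.5 to 193 and 192 FPKM (1.53 ± 0.065).

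Most protein synthesis and folding genes rose. Of 20 cytosolic aminoacyl-tRNA synthetases 18 rose and none fell (median 0.87), among them Tars (66.9 and 70.3 to 157 and 157 FPKM, 1.18 ± 0.05) and Iars (1.19 ± 0.067). Of 34 initiation factors and their regulators 29 rose and 1 fell (median 0.6), with Eif5a at 722 and 689 FPKM before and 1536 and 1481 after (1.1 ± 0.053) and Eif4ebp1, a repressor of cap-dependent initiation, also higher (1.06 ± 0.052). Of 22 chaperones 19 rose and none fell (median 0.84), with the mitochondrial Hspd1 (HSP60) going from 164 and 159 to 451 and 424 FPKM (1.43 ± 0.061) and the cytosolic Hspa8 from 878 and 847 to 1734 and 1738 FPKM (1.01 ± 0.052). In the endoplasmic reticulum 21 of 27 folding and unfolded protein response genes rose and none fell (median 0.67). Hspa5 (BiP), its main chaperone, went from 339 and 366 to 837 and 814 FPKM (1.23 ± 0.054), P4hb, a disulfide isomerase, from 117 and 121 to 213 and 218 FPKM (0.86 ± 0.047) and Ddit3 (CHOP), a stress-induced factor, from 47.6 and 49 to 97.4 and 95.9 FPKM (0.98 ± 0.062).

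Cytosolic ribosomal protein genes were called higher at about the background share. Of 78 cytosolic ribosomal protein genes 24 rose and 3 fell (median 0.11, and -0.0035 without the second unstimulated library), and 51 were not called. Rplp0 rose from 1095 and 1055 to 1435 and 1425 FPKM (0.41 ± 0.057). Many ribosomal protein genes have processed copies whose reads the counting could split. Of 76 mitochondrial ribosomal protein genes 53 rose and 1 fell (median 0.41), such as Mrpl12 (80.4 and 83.5 to 158 and 166 FPKM, 0.97 ± 0.068), and of 75 nuclear-encoded oxidative phosphorylation genes 34 rose and 5 fell (median 0.19). Of 37 proteasome subunits 30 rose and 3 fell (median 0.43). Psmb8 (342 and 310.3 to 182 and 177 FPKM, -0.85 ± 0.063) and Psmb9 (145 and 137 to 59.3 and 65 FPKM, -1.17 ± 0.07), which replace constitutive subunits in the interferon-inducible immunoproteasome, were 2 of the 3 that fell, and Psmb10, named after its value was seen, was the other (-0.6).

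Energy and lipid metabolism shifted in part. Of 23 genes of glycolysis and the pentose phosphate pathway 16 rose and 2 fell (median 0.48). Ldha, which makes lactate, went from 599 and 585 to 1636 and 1531 FPKM (1.42 ± 0.058), Slc16a1, which exports it, from 8.46 and 10.1 to 32.3 and 30.8 FPKM (1.67 ± 0.083) and the phosphofructokinase Pfkp from 36.1 and 37.6 to 72.4 and 76.1 FPKM (0.99 ± 0.061). Of 32 sterol and fatty acid genes 20 rose and 4 fell (median 0.62). The cholesterol enzymes Cyp51 (32.8 and 34.2 to 78.1 and 78.6 FPKM, 1.2 ± 0.05) and Idi1 (85.9 and 77.9 to 186 and 173 FPKM, 1.12 ± 0.064) rose, while Mylip, the ubiquitin ligase that removes the LDL receptor, fell from 28.5 and 28.3 to 4.13 and 3.99 FPKM (-2.54 ± 0.11). Of 20 heme and glutathione genes 12 rose and 3 fell. Txnrd1, or thioredoxin reductase (1.09 ± 0.073), Gclc, the first enzyme of glutathione synthesis (103 and 117 to 236 and 221 FPKM, 1.04 ± 0.076), and Ftl1, the ferritin light chain (2461 and 2352 to 4201 and 4142 FPKM, 0.79 ± 0.066), were among those that rose.

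**Figure D3:**
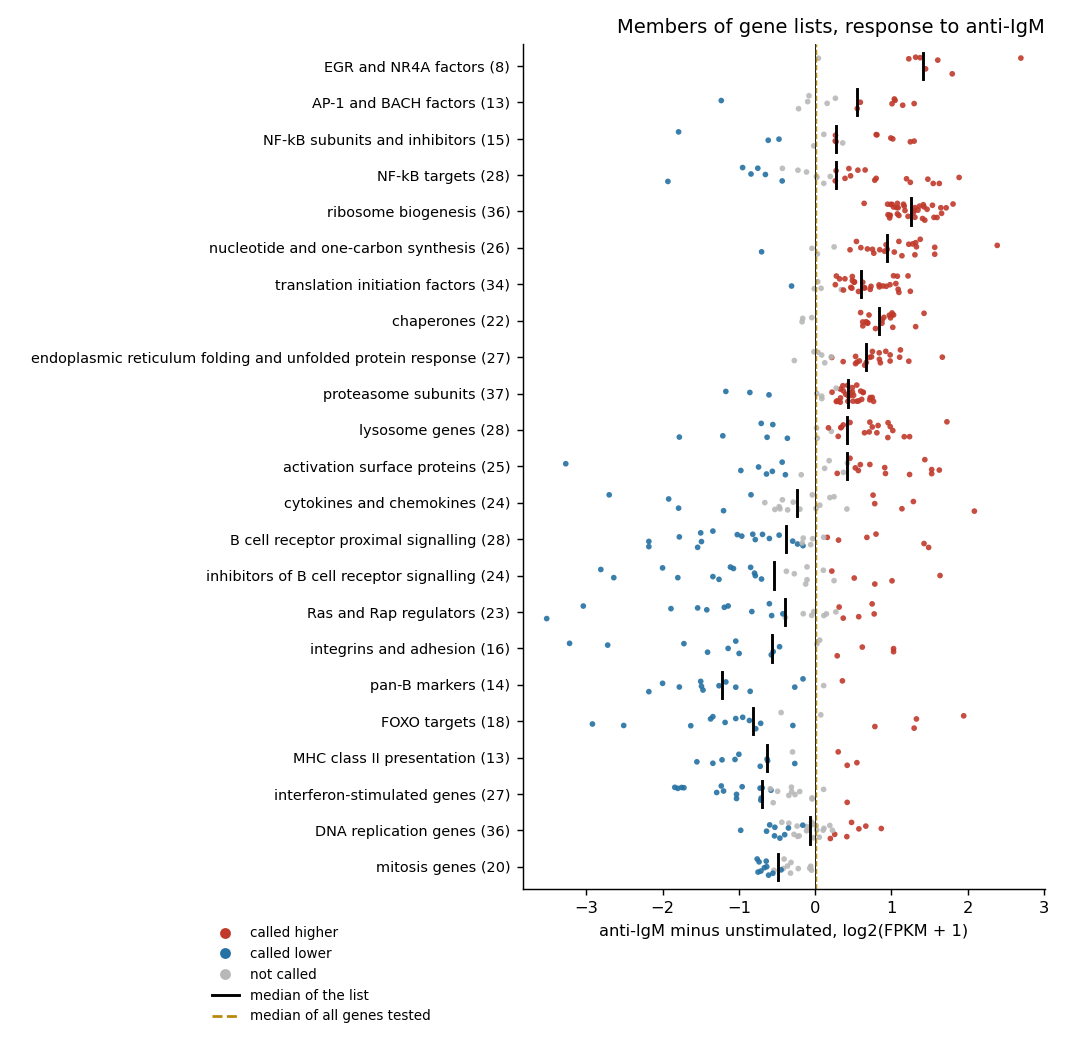
Each point is a gene of the list named at the left, with the number of members tested in parentheses. The x axis is anti-IgM minus unstimulated in wild-type cells on the log2(FPKM + 1) scale, red and blue points were called higher and lower, black bars are list medians, and the dashed line is the median of all 10797 genes (0.015). All 36 ribosome biogenesis genes lie to the right of 0 and 12 of 14 pan-B markers to the left as called falls.

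Lysosomal genes mostly rose. Of 28 tested 19 rose and 6 fell (median 0.41). Grn (progranulin) went from 80.2 and 73.6 to 153 and 154 FPKM (0.99 ± 0.062) and Hexa, the alpha chain of beta-hexosaminidase, from 58.3 and 59.9 to 116 and 126 FPKM (1.02 ± 0.079).

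Surface proteins of activated B cells rose more often than they fell. Of 25 tested 13 rose and 7 fell (median 0.42). Beside Cd83, the costimulatory ligand Cd86 rose from 143 and 157 to 224 and 220.1 FPKM (0.57 ± 0.067, and 0.36 after quantile normalization), the early activation marker Cd69 from 123 and 117 to 181 and 183 FPKM (0.59 ± 0.048) and the transferrin receptor Tfrc from 21.4 and 23.9 to 64.4 and 61.8 FPKM (1.44 ± 0.068). Cytokine genes moved in both directions, at about the background shares or below. Of 24 tested 5 rose, 5 fell and 14 were not called (median -0.24, and 0.079 without the second anti-IgM library). Over all genes 27.7% were called higher and 20.9% lower. The chemokines Ccl3 (27.9 and 24.4 to 65.4 and 65.2 FPKM, 1.29 ± 0.072) and Ccl4 (150.4 and 147 to 332 and 326 FPKM, 1.14 ± 0.07), which attract T cells and myeloid cells, and the angiogenic factor Vegfa (0.478 and 0.968 to 7.44 and 5.25 FPKM, 2.09 ± 0.2) rose. Il1b (6.64 and 6.1 to 1.21 and 0.719 FPKM, -1.92 ± 0.16) and Il16 (106 and 112 to 29.7 and 31.8 FPKM, -1.79 ± 0.087) fell with Ltb. Il6, at 0.837 and 0.995 FPKM unstimulated and 0.42 and 0.343 with anti-IgM (-0.47 ± 0.19, adjusted p = 0.0675), and Il10, at 8.11 and 7.73 and 6.5 and 7.06 FPKM (-0.2 ± 0.16, adjusted p = 0.337), were not called.

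Receptors for cytokines split by gene. Of 22 tested 8 rose and 7 fell (median -0.2). Il2ra (CD25) rose from 5.75 and 6.96 to 19.6 and 20.7 FPKM (1.53 ± 0.087), whereas both chains of the interferon gamma receptor, Ifngr1 (114 and 109 to 56.2 and 55.4 FPKM, -0.99 ± 0.085) and Ifngr2 (76.4 and 83.7 to 41.5 and 43.8 FPKM, -0.89 ± 0.071), and Il9r (44.5 and 45.8 to 15.1 and 17.2 FPKM, -1.43 ± 0.088) fell with Il10ra. Of 20 JAK, STAT and SOCS genes 11 fell and 3 rose (median -0.37). Stat5a, a mediator of interleukin 2 signals, rose from 9.2 and 11 to 26 and 27.8 FPKM (1.34 ± 0.085), and the kinase Jak1 fell from 181 and 183 to 112 and 108 FPKM (-0.72 ± 0.051).

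Receptors that place B cells in the spleen changed in opposite directions. Of 19 tested 6 rose and 8 fell (median -0.13). Gpr183 (EBI2), the oxysterol receptor that draws activated B cells to the follicle's edge, rose from 61.6 and 64.9 to 164 and 159 FPKM (1.34 ± 0.059). The chemokine receptors Ccr6 (115 and 106 to 238 and 209 FPKM, 1.0 ± 0.095) and Ccr7 (473 and 508 to 652 and 635 FPKM, 0.39 ± 0.056, and 0.24 after quantile normalization), the latter of which guides cells to the T zone, rose as well. S1pr1, which holds marginal zone B cells in place against the follicle's chemokine, fell from 186 and 185 to 103 and 113 FPKM (-0.78 ± 0.15), and S1pr4 from 34.7 and 37.9 to 8.23 and 7.83 FPKM (-2.05 ± 0.2). Cxcr4 was at 49.3 and 44.2 FPKM unstimulated and 41 and 45.1 with anti-IgM, overlapping between the groups (-0.12 ± 0.11, adjusted p = 0.418). Of 16 integrin and adhesion genes 10 fell and 4 rose (median -0.56), with Itgav going from 16 and 14.7 to 31 and 33.7 FPKM (1.03 ± 0.086) and Fermt3, which activates integrins, from 75.7 and 81.2 to 38.4 and 39.3 FPKM (-1.0 ± 0.087), a gene that platelets express too. The 10 RGS genes tested held, beside Rgs1, Rgs13, which rose (5.96 and 5.9 to 10.5 and 13.3 FPKM, 0.89 ± 0.15) and Rgs14, which fell (16.8 and 16.7 to 4.13 and 3.79 FPKM, -1.84 ± 0.17), with 3 up, 2 down and a median of -0.13 that turned to 0.16 with a minimum mean of 5 FPKM and to 0.024 without the first unstimulated library.

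Most pan-B markers fell, and marginal zone genes moved in both directions. Of 14 pan-B markers 12 fell, 9 by at least 2-fold, and 1 rose (median -1.21, against 20.9% of all genes called lower). Of 19 transcription factors of B cell identity 12 fell and 4 rose. Ets1, whose loss favours plasma cells, fell from 257 and 297 to 71.7 and 70.7 FPKM (-1.94 ± 0.071), Id3, an inhibitor of E proteins, from 335 and 291 to 93.2 and 101 FPKM (-1.68 ± 0.074) and the coactivator Pou2af1 from 246 and 236 to 120.3 and 113 FPKM (-1.04 ± 0.057). Irf8 rose from 127 and 129.9 to 232 and 240.3 FPKM (0.88 ± 0.052). Of 22 marginal zone genes 11 fell and 7 rose (median -0.31). Notch2, the receptor on which this subset depends, fell from 26.6 and 25 to 7.75 and 8.68 FPKM (-1.54 ± 0.091) and Mzb1, a cofactor of antibody secretion, from 534 and 482 to 211 and 196 FPKM (-1.31 ± 0.062), whereas S1pr3 and Cr2 rose. Cd9 fell slightly (269 and 284 to 241 and 248 FPKM, -0.18 ± 0.056, adjusted p = 0.0229), and its call was lost without the second unstimulated library (adjusted p = 0.13) and without either anti-IgM library (adjusted p = 0.121 and 0.0518). Of 12 follicular genes 3 rose and 5 fell, and Fcer2a (CD23), a follicular marker, was not called (126 and 139 to 112 and 128 FPKM, -0.15 ± 0.078, adjusted p = 0.138). Of 24 Notch pathway genes 5 rose, 7 fell and 12 were not called, against 27.7% of all genes called higher and 20.9% lower. Adam10, the protease that starts Notch cleavage, rose from 45.6 and 51.4 to 74 and 79.4 FPKM (0.65 ± 0.075).

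Most quiescence factors fell. Of 13 FOXO, KLF and related factors 8 fell and 3 rose (median -0.73). Klf2, which keeps lymphocytes resting and drives homing genes, fell from 137 and 129 to 22.2 and 22.7 FPKM (-2.51 ± 0.12), Foxo1 from 63.8 and 61.9 to 23.9 and 23.8 FPKM (-1.36 ± 0.068) and Tsc22d3 (GILZ) from 149.9 and 160.4 to 48.4 and 49.7 FPKM (-1.64 ± 0.067). Of 18 FOXO targets 12 fell and 4 rose (median -0.82). Klf2 is on this list and fell, as did Txnip, a brake on glucose uptake (88.6 and 92.1 to 38.1 and 40.5 FPKM, -1.18 ± 0.065), but Irs2, an insulin receptor substrate on the same list, rose from 20.9 and 25.8 to 91.2 and 93 FPKM (1.95 ± 0.093).

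Genes of plasma cell development moved in both directions. Of 16 genes of the switch to plasma cells 4 rose, 5 fell and 7 were not called. Over all genes 27.7% were called higher and 20.9% lower. Irf4, a factor needed for it, rose from 35.9 and 37.1 to 133 and 142 FPKM (1.89 ± 0.065) and Xbp1, which expands the secretory pathway, from 74.2 and 69.8 to 103 and 106 FPKM (0.53 ± 0.055, and 0.35 after quantile normalization). Prdm1 (BLIMP-1), which represses the B cell program, was at 7.16 and 8.1 FPKM unstimulated and 7.64 and 8.24 with anti-IgM, overlapping between the groups (0.051 ± 0.15, adjusted p = 0.814), and Sec11c, a signal peptidase subunit, fell from 281 and 259.5 to 110.4 and 105 FPKM (-1.32 ± 0.075).

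Antigen presentation genes moved apart. Of 13 MHC class II genes 9 fell and 3 rose (median -0.63). The chains of the classical molecules rose, H2-Aa from 3220.2 and 2944 to 4534 and 4479 FPKM (0.55 ± 0.068) and H2-Ab1 from 4147 and 4022 to 4989 and 5099 FPKM (0.3 ± 0.06, adjusted p = 0.0609 when fitted to its 4 libraries only), with H2-Eb1, named after its value was seen, as the third (0.42). Chains that load peptide or modulate loading fell, H2-DMb2 from 379.7 and 370.4 to 190.5 and 184 FPKM (-1.0 ± 0.054), H2-Oa from 105 and 102 to 39 and 41.9 FPKM (-1.34 ± 0.083) and H2-Ob from 351 and 344 to 167 and 168 FPKM (-1.05 ± 0.065), and so did Ifi30, the thiol reductase of the loading compartment (121 and 107 to 40.6 and 35.8 FPKM, -1.55 ± 0.081). Cd74, the invariant chain, was at 11293 and 11762 FPKM unstimulated and 9556 and 9616 with anti-IgM (-0.27 ± 0.072, adjusted p = 0.0113), and its call was lost without either anti-IgM library (adjusted p = 0.0652 and 0.0536) and after quantile normalization (-0.73, adjusted p = 0.183). Cd52 (3325 and 2935 to 1191 and 1163 FPKM, -1.41 ± 0.084), a surface glycopeptide, and Tmsb4x (6453 and 5853 to 3686 and 3593 FPKM, -0.76 ± 0.085), an actin-binding peptide, were other abundant transcripts that fell.

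Interferon-stimulated genes fell more often than they rose. Of 27 tested 15 fell, 9 by at least 2-fold, and 1 rose (median -0.69). The guanylate-binding protein genes Gbp2 (12.8 and 11.4 to 2.58 and 2.91 FPKM, -1.8 ± 0.13) and Gbp3 (37.6 and 37 to 12.2 and 7.73 FPKM, -1.84 ± 0.15), the RNA sensor Ddx58 (RIG-I; 17.9 and 19.5 to 7.65 and 6.5 FPKM, -1.29 ± 0.14) and Stat2 (29.5 and 31.1 to 13.8 and 14.9 FPKM, -1.03 ± 0.1) fell. Of 9 interferon regulatory factor genes 5 fell and 3 rose, with Irf2 going from 56.4 and 59.8 to 20.3 and 21.9 FPKM (-1.42 ± 0.12) and Irf9 from 63.1 and 59.3 to 42.3 and 33.7 FPKM (-0.68 ± 0.098). Of 18 Toll-like receptor genes 5 rose, 5 fell and 8 were not called, against 27.7% of all genes called higher and 20.9% lower. Tlr1 fell from 19.7 and 21.8 to 4.45 and 3.95 FPKM (-2.06 ± 0.14), and Cd180, an LPS coreceptor of B cells, rose from 6.75 and 6.32 to 12 and 13.1 FPKM (0.85 ± 0.13). Summed macrophage and monocyte markers were lower with anti-IgM too (19.4 to 21.8 against 33.2 to 40.3 FPKM), and their part in these falls was not tested.

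BCL2 family genes rose more often than they fell, among them protective and death-promoting ones. Of 13 BCL2 family genes 7 rose and 3 fell (median 0.38). The death-promoting Bax (149.9 and 161 to 270.0 and 269.8 FPKM, 0.8 ± 0.054), Bid (69.8 and 69.4 to 108 and 105 FPKM, 0.61 ± 0.045) and Bcl2l11 (BIM; 44.3 and 41.8 to 72.6 and 77.2 FPKM, 0.79 ± 0.085) rose beside Bcl2a1b and Bcl2l1, and the protective Mcl1 fell from 188 and 181 to 136 and 126 FPKM (-0.49 ± 0.059, and -0.74 after quantile normalization). In the TNF receptor and TRAF list 5 of 14 rose, 3 fell and 6 were not called, against 27.7% of all genes called higher and 20.9% lower. The BAFF receptor gene Tnfrsf13c rose from 155 and 139 to 238 and 226 FPKM (0.66 ± 0.068), and Traf5 fell from 53.4 and 52.3 to 11.2 and 13.3 FPKM (-2.03 ± 0.099). Of 9 mRNA decay factors 4 rose and 1 fell, with Zc3h12c, a Regnase, going from 5.65 and 6.05 to 16.9 and 15.4 FPKM (1.32 ± 0.095) and Zfp36l2 from 24.8 and 24.4 to 12.3 and 13.4 FPKM (-0.89 ± 0.095).

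Cell cycle genes moved in both directions at 4 h. Of 21 G1 genes 5 rose and 10 fell. The G1 kinases Cdk4 (143 and 144 to 349 and 343 FPKM, 1.27 ± 0.045) and Cdk6 (7.66 and 7.62 to 28.7 and 27.8 FPKM, 1.76 ± 0.12) and their partner Ccnd2 (12 and 10.8 to 20 and 16 FPKM, 0.61 ± 0.11) rose, and the inhibitors Cdkn2d (30.4 and 27.7 to 6.96 and 5.59 FPKM, -2.05 ± 0.18) and Rbl2 (26.8 and 25.9 to 8.87 and 11.1 FPKM, -1.32 ± 0.13) fell. Of 36 DNA replication genes 7 rose, 9 fell and 20 were not called (median -0.067), near the shares over all genes of 27.7% and 20.9%. Pcna, the replication clamp, rose from 131 and 131 to 243 and 237 FPKM (0.87 ± 0.052), and Rrm2, a ribonucleotide reductase subunit, fell from 20.3 and 19.7 to 9.12 and 10.3 FPKM (-0.97 ± 0.08). Of 20 mitosis genes none rose and 10 fell (median -0.49), such as Top2a (13 and 14.9 to 8.21 and 8.66 FPKM, -0.67 ± 0.13) and Birc5 (22 and 21 to 14.5 and 14.1 FPKM, -0.55 ± 0.11). Of 12 genes often used as references 5 rose and 1 fell (median 0.18, and -0.00075 after quantile normalization), Gapdh from 373 and 343 to 557 and 526 FPKM (0.6 ± 0.062) and Ppia from 3156 and 2906 to 4609 and 4454 FPKM (0.58 ± 0.077).

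The response to anti-IgM was next set against that to LPS, as the design includes both stimuli at the same mass concentration and time. Whether they were matched in strength was not tested. LPS changed 7489 genes (69.4%) against the same unstimulated libraries, so both responses share their controls and their values are only given side by side. The direct comparison of the anti-IgM with the LPS libraries called 2701 genes higher with anti-IgM (25%) and 2994 lower (27.7%). Of 8 EGR and NR4A genes 7 were higher with anti-IgM than with LPS and 1 was lower, and the list medians against unstimulated cells were 1.42 with anti-IgM and -0.29 with LPS. Egr2 stood at 156 and 169.7 FPKM with anti-IgM and at 10.3 and 8.14 with LPS, a difference of 4.01 ± 0.11 (adjusted p = 2.81e-09), with 23.2 and 25.1 in unstimulated cells between them. Egr3 (3.33 and 2.92 FPKM with LPS, difference 2.48 ± 0.16), Nr4a2 (2.61 and 3.33, 2.6 ± 0.15) and Nab2 (3.98 and 5.06, 2.63 ± 0.13) were ordered the same way. Nr4a1 stood at 227 and 226 FPKM with LPS, and the difference was small (0.28 ± 0.07, adjusted p = 0.00736).

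Other large differences in favour of anti-IgM came from genes whose LPS libraries lay below the unstimulated ones. Gfi1 stood at 1.79 and 1.3 FPKM with LPS (3.84 ± 0.17), Spp1 at 0.896 and 1.01 (3.81 ± 0.17), S1pr3 at 3.5 and 4.05 (3.6 ± 0.14) and Lrmp at 8.88 and 12.3 (3.46 ± 0.11). Rab30, a small GTPase of the Golgi, was at 19.6 and 21.8 FPKM unstimulated, 56.3 and 55.6 with anti-IgM and 2.11 and 2.41 with LPS (difference 4.13 ± 0.16). The epoxide hydrolase gene Ephx1 (107 and 105 unstimulated, 185 and 193 with anti-IgM, 12 and 9.87 with LPS, difference 4.0 ± 0.2) followed the same order. So did Uap1l1 (84.1 and 89.9 FPKM with anti-IgM, 4.64 and 4.69 with LPS, 3.96 ± 0.14) and Rasd1, a Ras-like GTPase (33.1 and 34.5 with anti-IgM, 2.33 and 1.39 with LPS, 3.62 ± 0.15). The nuclear RNA Neat1 was not called between anti-IgM and unstimulated libraries (77.7 and 81.1 FPKM unstimulated, 62.2 and 75.3 with anti-IgM) but stood at 3.65 and 3.11 FPKM with LPS (3.99 ± 0.1). Lysosomal genes were higher with anti-IgM than with LPS in 23 of 28 cases and lower in 3, with medians against unstimulated cells of 0.41 and -0.89, Hexa for example standing at 24.5 and 27.2 FPKM with LPS (2.19 ± 0.079). Calcium genes were higher in 15 of 23 and lower in 2, RGS genes in 7 of 10 and lower in none, and MHC class II genes in 10 of 13 and lower in 2.

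Most NF-kB targets and cytokines were higher with LPS. Of 28 targets 26 were lower with anti-IgM than with LPS and 2 were higher, with medians against unstimulated cells of 0.27 and 2.11. Nfkbiz stood at 30.1 and 29.5 FPKM with anti-IgM and 315 and 337 with LPS (-3.41 ± 0.079), Tnfaip3 at 199 and 209 with LPS (-2.08 ± 0.06), Bcl2l1 at 231 and 230.3 (-3.08 ± 0.063) and Birc3, which was lower with anti-IgM than in unstimulated cells (107 and 111 to 65 and 63.3 FPKM), at 319 and 329 (-2.32 ± 0.047). Of 24 cytokines and chemokines 17 were lower with anti-IgM and 2 were higher. Il6 stood at 0.42 and 0.343 FPKM with anti-IgM and 53.3 and 55.2 with LPS (-5.32 ± 0.19, adjusted p = 1.38e-08), and Il1b at 1.21 and 0.719 with anti-IgM and 88.1 and 94.7 with LPS (-5.57 ± 0.16). The chemokine Cxcl10 stood at 7.18 and 1.81 FPKM with anti-IgM, a difference of -4.3 ± 0.39 from LPS. Another chemokine, Ccl22, stood at 1.46 and 2.26 FPKM with anti-IgM and 57.1 and 51.9 with LPS (-4.29 ± 0.22). Ebi3, a subunit shared by heterodimeric cytokines, stood at 4.99 and 8.47 and, with LPS, at 131 and 119 FPKM (-4.07 ± 0.18). Cxcl10, Ccl22 and Ebi3 were not called between anti-IgM and unstimulated cells (adjusted p = 0.184, 0.108 and 0.0723). Ccnd2 (166 and 163 FPKM with LPS, -3.13 ± 0.11), Il2ra (125 and 124, -2.57 ± 0.087) and Fcer2a (937 and 923, -2.95 ± 0.078) were other genes far higher with LPS. Dennd3, which encodes a Rab exchange factor, fell with anti-IgM (6.69 and 7.56 to 0.726 and 1.32 FPKM, -2.02 ± 0.15) and stood at 47.1 and 45.8 FPKM with LPS (-4.57 ± 0.15). Rasl11a, a Ras-like gene, stood at 0.537 and 0.11 FPKM with anti-IgM and 14.6 and 12.6 with LPS (-3.48 ± 0.27). Hba-a2, a haemoglobin chain, was called lower with anti-IgM too (adjusted p = 0.0413), at 1.58 and 2.59 against 73.4 and 195 FPKM, but it was at 299 and 2.02 FPKM in the 2 unstimulated libraries, and the call was lost without any 1 of the 4 compared libraries (adjusted p = 0.0777 to 0.165).

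Most growth genes were higher with LPS than with anti-IgM. All 36 ribosome biogenesis genes were lower with anti-IgM than with LPS, with medians against unstimulated cells of 1.25 and 2.14. Myc stood at 266 and 287 FPKM with anti-IgM and 475 and 486 with LPS (-0.8 ± 0.053, adjusted p = 9.83e-07). Of 34 initiation factors 31 were lower with anti-IgM and 1 was higher, of 22 chaperones 21 were lower and none higher, and of 37 proteasome subunits 32 were lower and none higher. Folding genes of the endoplasmic reticulum went against that order, with 14 of 27 higher with anti-IgM and 4 lower, Ddit3 among the former (97.4 and 95.9 FPKM with anti-IgM, 30 and 28.8 with LPS, 1.68 ± 0.062). Irs2 (18.3 and 18.6 FPKM with LPS, 2.26 ± 0.093), Ccr6 (37.7 and 43.1, 2.44 ± 0.095) and S1pr1 (7.49 and 11, 3.43 ± 0.15) were higher with anti-IgM. Syk stood at 84.5 and 87.8 FPKM with LPS, above its level with anti-IgM (-1.8 ± 0.076). Cd55 (28.7 and 29.8 FPKM with LPS, -0.059 ± 0.064, adjusted p = 0.465) and Mylip (3.96 and 4.13, 0.004 ± 0.11, adjusted p = 0.981) had differences that did not pass the test.

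**Figure D4:**
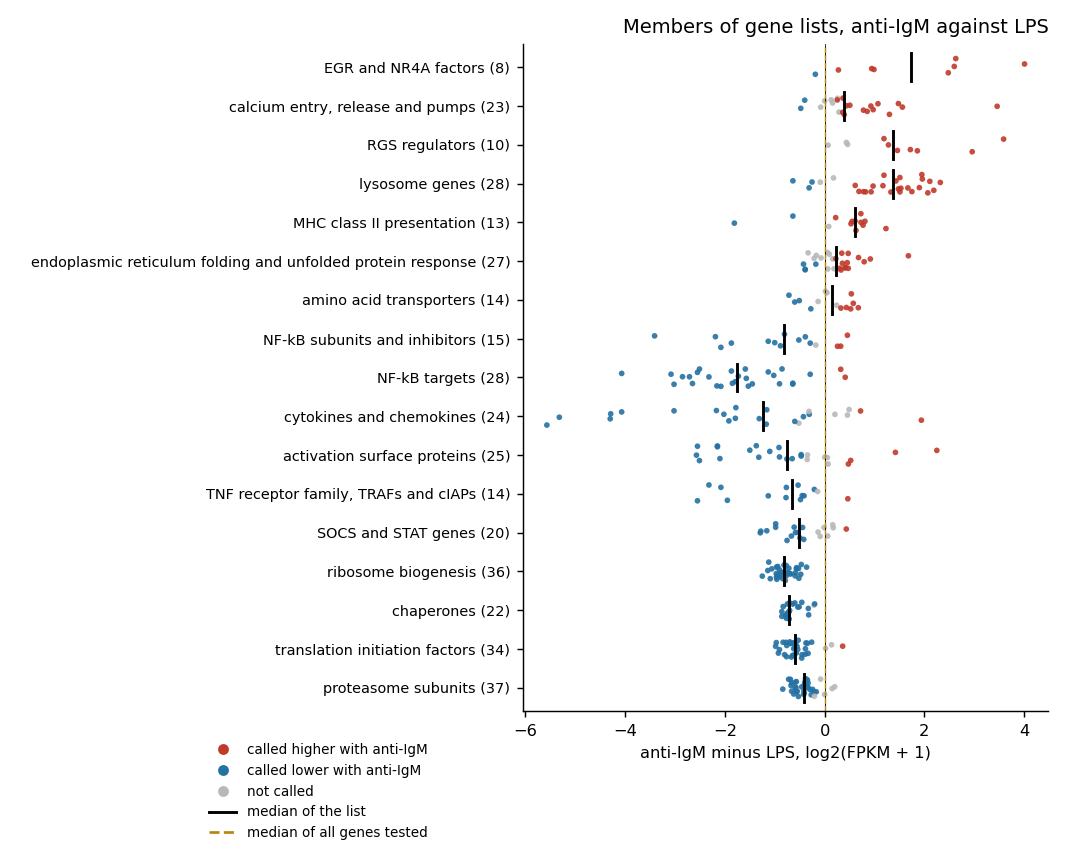
Each point is a gene of the list at the left (members tested in parentheses), and the x axis is the anti-IgM minus the LPS libraries of wild-type cells on the log2(FPKM + 1) scale. Red points were called higher and blue points lower with anti-IgM, black bars are list medians and the dashed line is the median of all genes (0). NF-kB targets have 26 of 28 members as called lower, and lysosome genes 23 of 28 as called higher.

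The response was then read in Trpm5-/- cells, whose 4 libraries share none with the wild-type comparison. There anti-IgM changed 5386 genes (49.9%). Of the 2991 genes that rose in wild-type cells 2932 were higher in Trpm5-/- cells and 2487 were called higher (83.1% of the wild-type rises and 85.8% of 2899 Trpm5-/- rises), while 3 were called lower. Of the 2255 that fell 2210 were lower and 1836 were called lower (81.4% of the wild-type falls and 73.8% of 2487 Trpm5-/- falls), while 2 were called higher. The Pearson correlation of both responses across genes was 0.73, given as a description because genes are not independent. Of the genes with the largest changes, Egr2 differed by 2.66 in Trpm5-/- cells (26.5 and 23.6 to 169 and 157 FPKM), Gfi1 by 2.51 (4.69 and 6.02 to 34.6 and 35.2) and Rasgrp2 by -3.31 (36.2 and 35.9 to 2.5 and 3.01). All 36 ribosome biogenesis genes and 7 of 8 EGR and NR4A genes rose there too.

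The test of the difference between the genotypes' responses called 3 genes (0.0278%), with 857 at an unadjusted p under 0.05. Il4i1, a secreted enzyme that breaks down phenylalanine, rose from 52.1 and 53.1 to 158 and 156 FPKM in wild-type cells (1.56 ± 0.055) and from 42.3 and 40.8 to 78 and 74.7 FPKM in Trpm5-/- cells (0.86), so that the response was smaller by a log2 difference of -0.7 ± 0.077 (adjusted p = 0.0136). The call did not hold with a prior that has no trend (adjusted p = 0.19), nor without either anti-IgM library of wild-type cells (0.0792 and 0.0775) or of Trpm5-/- cells (0.0668 and 0.133), nor without the first unstimulated Trpm5-/- library (0.0873). The other 2 calls, Mir18 and Snora31, are small RNA genes listed at 0 FPKM in both unstimulated Trpm5-/- libraries. Beyond these calls the smallest p-values belonged to Napsa, Shmt2 and Tmem123 (interaction -0.6, -0.43 and -0.48, each at adjusted p = 0.0655), Phgdh, the first enzyme of serine synthesis (-0.39, adjusted p = 0.17), and, with a positive difference, Kctd13 (0.57, adjusted p = 0.211), Wsb1, Slirp, Lyz2 (0.36, 0.48 and 1.1, each at 0.246) and Rasgef1b (0.34, adjusted p = 0.266). None of these passed the threshold. A positive difference was not a larger response in each case, since Lyz2, a lysozyme gene, was at -0.99 in wild-type and 0.11 in Trpm5-/- cells.

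**Figure D5:**
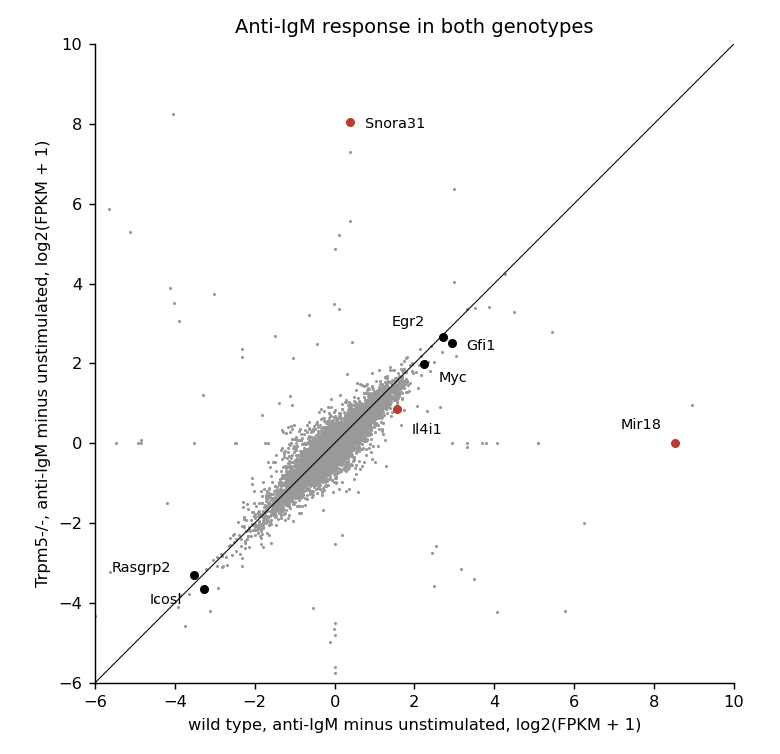
Each grey point is 1 of 10797 genes, with the anti-IgM response of wild-type cells on the x axis and that of Trpm5-/- cells on the y axis, both on the log2(FPKM + 1) scale, and the line marks equal responses. Red points are the 3 genes whose responses were called different, black points are genes named in the text, and 5 genes lie outside the plotted range. Egr2 lies at 2.7 and 2.66, and Rasgrp2 at -3.52 and -3.31.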

How the data were processed

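The authors deposited 1 table per library with 1 value per gene symbol, taken as FPKM from the submitters' processing notes, which name TopHat2 2.0.13, Bowtie2 2.2.3, SAMtools 0.1.19, Cufflinks 2.2.1 and mm10. No file header gives the unit, and filters and strand settings were not stated by any source used. RNA was made into cDNA with a SMART-Seq HT kit and libraries with a Nextera kit, per the labels' protocols. Fragment totals are unknown, so no counting intervals were given, and median ratios between the libraries of 1.008 to 1.015 show that the deposited FPKM were already scaled to each other. All groups hold 2 libraries. Values were tested as log2(FPKM + 1) with limma 3.58.1 (R 4.3.3), in a group-means model over all 12 libraries (6 residual degrees of freedom) with a trended eBayes prior, 2-sided, with Benjamini-Hochberg adjustment over 10797 genes and a threshold of 0.05. SE is that of the fit. The fit was tested on simulated data. The comparison, the gene lists and the alternatives were chosen with earlier results of these data known, and no list is independent evidence. Genes were named by rule: the 15 largest rises and falls with non-overlapping libraries and at least 5 FPKM in the higher group, without gene models, receptor segments and small RNAs, the 4 or 6 list members of smallest p, a list of 38 genes, the 8 largest differences from LPS in each direction, the 5 smallest interaction p-values in each direction and the 5 most abundant called genes in each direction. The main fit did not pair libraries by replicate number. Correlations of same-numbered deviations over 15 pairs of groups ran from -0.167 to 0.337, with 4 over 0.1 and 3 under -0.1. They do not exclude a pairing or a shared batch in some groups. Gene positions are from GENCODE M21 and promoter sequences from RefSeq. Some genes that the rule names are not reported here.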

Additional observations from a re-analysis of the deposited data

Results flagged for a closer look

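The responses of the genotypes to anti-IgM differed by the interaction test for 3 genes, given as Trpm5-/- minus wild type on the log2 scale. For Il4i1 the difference was -0.699. For Mir18 it was -8.53, and this gene was listed at 235 and 577 FPKM in the wild-type anti-IgM libraries and at 0 in the wild-type unstimulated, wild-type LPS and both kinds of Trpm5-/- libraries used here. For Snora31 it was 7.64, with 0 and 0 FPKM in the unstimulated and 209 and 328 FPKM in the anti-IgM libraries of Trpm5-/- cells, and with 103 and 111 and then 156 and 127 FPKM in wild-type cells. The call for Snora31 was lost with a robust prior (adjusted p = 0.111). What sets the zeros of these small RNA genes was not tested.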

How the results depend on the processing

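For the response of wild-type cells to anti-IgM the count of calls ran from 4257 to 5346 over the other settings, and 14 of 265 named and called genes lost the call under at least 1 of them. Counts for the response of Trpm5-/- cells to anti-IgM, the response of wild-type cells to LPS and the anti-IgM minus LPS difference stayed within 1.5 times of the values given. For the response to anti-IgM, Trpm5-/- minus wild type, the 3 calls became 9 without a filter on low values, 5 with the compared libraries alone, 5 with a robust prior and 2 to 7 when 1 library was left out (7 without the first unstimulated wild-type library). In the response of wild-type cells to anti-IgM, 5 named differences changed sign, of which the one for Wsb1 was called. After quantile normalization Slirp was at -0.046 and Wsb1 at -0.096. With 1 library left out Cxcl10 ran from -1.431 to 0.1125, Hba-a2 from -6.624 to 0.00964 and Prdm1 from -0.02753 to 0.1304. The cause was not tested. With the replicate number as a block 5246 genes were called in wild-type cells, and 5109 genes were called both with and without it. Fragment depth is unknown, which leaves the precision of low FPKM unstated.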
